A study of Mus musculus with 2 samples.

Results

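The Mir15, Mir16 and Mir497 genes encode small RNAs of a single seed family, and 5 rows of the tables, of 1973 in all, were described here: Mir15a, Mir16-1, Mir15b, Mir16-2 and Mir497b. They were chosen by gene symbol, with the symbol of each Ensembl identifier taken from the mouse GENCODE annotation. For Mir497b the reads on the opposite strand were used, which is the strand of Mir497, the gene that overlaps it. The samples were whole limbs of B6NCrl mouse embryos at embryonic day 14.5, and RNA inserts under 30 nucleotides were sequenced. The only group held 2 libraries, biological replicates 1 and 2, so there was no contrast between conditions. The labels gave 4 limbs of 1 pup for each, pooled sex, separate collection days and the same donor, and nothing beyond these showed that the animals differed. The spread between the libraries may therefore be technical in part. In whole limbs, fewer cells of a type and less RNA per cell cannot be told apart.

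MicroRNAs guide the silencing complex to messenger RNAs that pair with the seed, bases 2 to 8 of the mature RNA. MicroRNAs of the miR-15 and miR-16 family are known to repress cyclins, cyclin-dependent kinases and the survival factor Bcl2, and so to restrain the cell cycle. Mir15a and Mir16-1 lie together in Dleu2, a long noncoding RNA gene whose human counterpart is often lost in chronic lymphocytic leukaemia. Mir15b and Mir16-2 form the paralogous pair in Smc4, which encodes a condensin subunit. Mir497 and Mir195a form a further pair of the same seed, and Mir322, which lies beside Mir503, is known for promoting cell cycle exit in differentiating muscle.

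The mature 5p sequences are printed because they show which of these RNAs a read can tell apart. Capitals mark the seed. All were copied from RefSeq, build GRCm38.p6, and all 5 members had an entry.
miR-15a-5p (Mir15a): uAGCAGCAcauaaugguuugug
miR-15b-5p (Mir15b): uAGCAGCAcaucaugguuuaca
miR-16-5p (Mir16-1 and Mir16-2): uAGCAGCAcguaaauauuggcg
miR-497a-5p (Mir497): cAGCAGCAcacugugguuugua
miR-195a-5p (Mir195a): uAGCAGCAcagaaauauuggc
miR-322-5p (Mir322): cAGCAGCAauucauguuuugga
miR-503-5p (Mir503): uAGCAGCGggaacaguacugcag
miR-497b (Mir497b, opposite strand to Mir497): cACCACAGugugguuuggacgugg

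The seed AGCAGCA was found in a mature RNA of 11 genes in the RefSeq table. The annotated RNA of Mir497b has another seed, ACCACAG, so the reads used from that row belong with this family only as reads of Mir497. Mir503 also has a different seed, AGCAGCG. Counted from 1 at the 5′ end with the base of miR-15a-5p first, miR-15b-5p differs from it by A12C, G20A, U21C and G22A, all outside the seed. With the base of miR-16-5p first, miR-195a-5p differs over their 21 shared positions by G10A and U11G. Each of these is a separate sequence that a whole read can identify.

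The Mir16 genes are the exception. Their hairpins are printed with the mature arms in capitals.
Mir16-1: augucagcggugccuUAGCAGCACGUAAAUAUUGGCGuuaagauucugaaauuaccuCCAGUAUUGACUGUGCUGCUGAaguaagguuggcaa
Mir16-2: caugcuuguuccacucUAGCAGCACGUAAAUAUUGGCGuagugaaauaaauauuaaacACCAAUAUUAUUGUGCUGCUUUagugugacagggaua
The 5p arm is the same in both, and the longest stretch that the hairpins share is 23 bases long. Of the mature RNAs of the 5 members and Mir497, miR-16-5p alone was found in a second hairpin among the 1005 hairpins of the RefSeq table. No hairpin of that set held either mature RNA of Mir15a, its own included, so the set is incomplete. Other positions in the genome were not searched. Reads with several alignments were tallied apart and given to no gene, and they made up 31.8% of the reads of replicate 1 and 32.6% of those of replicate 2. How many of them were miR-16-5p was not measured. The counts of Mir16-1 and Mir16-2 are thus lower limits on the reads those genes gave.

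In GRCm38 coordinates of GENCODE M21, Mir15a (ENSMUSG00000093007.1) lies on the minus strand of chromosome 14 from 61632027 to 61632110, in an intron of Dleu2. Mir16-1 (ENSMUSG00000092995.1) follows it 54 bases downstream, from 61631880 to 61631972. The last 13 bases of that hairpin overlap an exon of 1 annotated Dleu2 transcript, outside both mature arms. Mir15b (ENSMUSG00000065580.1 in the tables) lies on the plus strand of chromosome 3 from 69009772 to 69009835, in an intron of Smc4. Mir16-2 (ENSMUSG00000065606.1) lies 66 bases further on, from 69009902 to 69009996, also intronic. Mir497b (ENSMUSG00000070109.2) lies on the minus strand of chromosome 11 from 70234692 to 70234816 and covers Mir497 on the plus strand (70234717 to 70234800). Mir195a follows Mir497 after 241 bases, and neither overlaps an annotated gene other than, for Mir497, Mir497b. The map of the hairpins shows that the Dleu2 and Smc4 pairs share their order, with the Mir15 gene upstream.

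**Figure D1:**
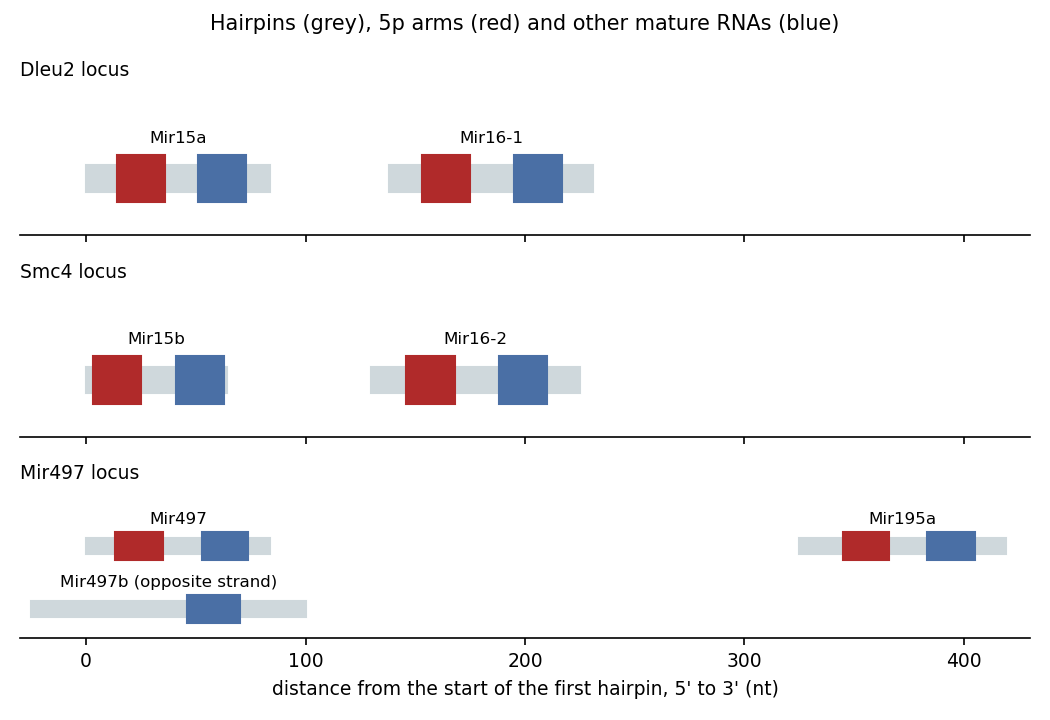
Map of the hairpins at the 3 loci, in nucleotides from the start of the first hairpin and in the direction of transcription. Grey bars are hairpins, red boxes 5p arms and blue boxes the other mature RNAs. Mir15a and Mir16-1 are 54 bases apart, Mir15b and Mir16-2 66 bases, and Mir497 and Mir195a 241 bases.

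The depth was 4608816 own-strand microRNA counts in replicate 1 and 4144385 in replicate 2, and levels are given as counts per 1000000 of these (CPM). A level of 3 counts, the limit that a count of 0 allows, equals 0.651 and 0.724 CPM. This limit is a one-sided bound, whereas the intervals per library are two-sided exact 95% intervals, and both cover counting error only. The mature RNAs differ little in length, so no scaling by length was made, and unequal yield of reads between microRNAs was not measured. As a check of the labelled tissue, the cartilage microRNA Mir140 was at 57289 ± 2418 CPM (SD, n = 2) and the HoxA microRNA Mir196b at 51975 ± 3475 CPM. The liver microRNA Mir122 was at 9.90 ± 5.11 CPM, and the 4 brain genes of the marker list had 0 counts, though their mature RNAs have identical copies.

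Among singly aligned reads, to which all levels and ranks below refer, Mir15a was the most abundant member. It had 15421 counts in replicate 1 and 15659 in replicate 2, which gave 3346 CPM (3293 to 3399) and 3778 CPM (3719 to 3838). Its mean was 3562 ± 306 CPM (SD, n = 2), rank 52 of the 1973 genes, of which 408 had at least 10 counts over both libraries. Mir16-1, from the same locus, had 2473 CPM (2428 to 2519) in replicate 1 and 2573 CPM (2524 to 2622) in replicate 2, with a mean of 2523 ± 70.4 CPM and rank 66. Both libraries of Mir15a lay above both of Mir16-1.

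The Smc4 pair was lower. Mir15b reached 1303 CPM (1270 to 1336) in replicate 1 and 1496 CPM (1459 to 1534) in replicate 2, a mean of 1399 ± 137 CPM and rank 91. Mir16-2 reached 777 CPM (752 to 803) and 789 CPM (762 to 817), a mean of 783 ± 8.83 CPM and rank 109. Neither gene overlapped the other or either gene of the Dleu2 pair in its range over the libraries.

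Mir497 gave 3623 reads in replicate 1 and 3405 in replicate 2, on the opposite strand of the Mir497b row. These equal 786 CPM (761 to 812) and 822 CPM (794 to 850), a mean of 804 ± 25.1 CPM and rank 107. The own strand of Mir497b held 1 count in replicate 1 and 3 in replicate 2, at or below 3 counts, too few to set a level for Mir497b itself. The ranges of Mir497 and Mir16-2 overlapped, and the interval of their ratio held 1 in both libraries (0.966 to 1.06 and 0.992 to 1.09). By singly aligned reads, with the counts of both Mir16 genes as lower limits, the order of the members was Mir15a, Mir16-1 and Mir15b, followed by Mir497 and Mir16-2, whose order was not resolved.

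**Figure D2:**
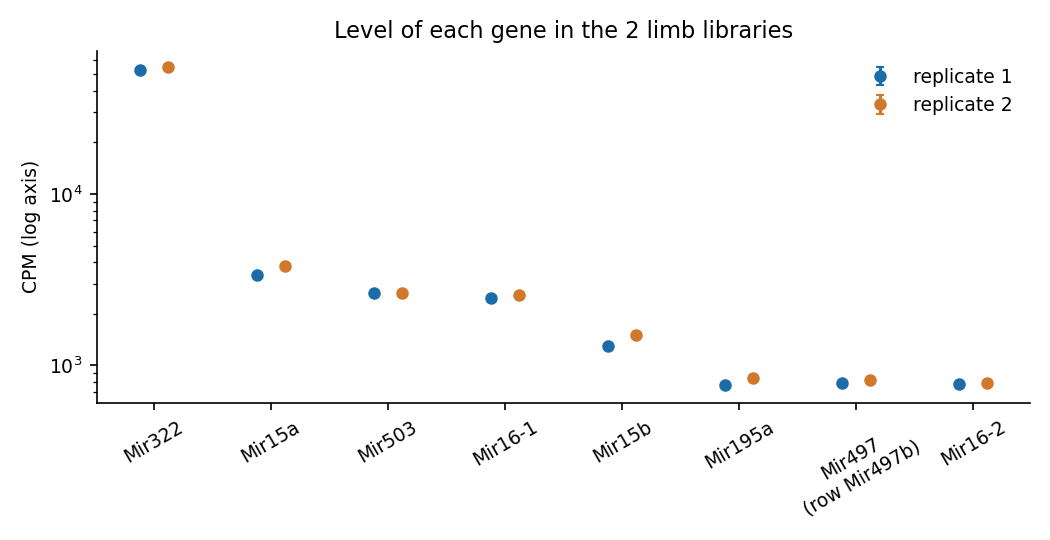
Level in CPM (log axis) of the members and of the other genes of the family list with counts, in replicate 1 (blue) and replicate 2 (orange), with exact 95% counting intervals that are mostly smaller than the points. Mir322 lies at 52530 and 54899 CPM, Mir15a between 3346 and 3778 CPM, and Mir195a, Mir497 and Mir16-2 lie together between 774 and 844 CPM.

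The paralogous loci were then compared within each library, where a ratio does not depend on scaling between libraries. The Dleu2 pair summed to 5819 and 6351 CPM in replicates 1 and 2, and the Smc4 pair to 2079 and 2286 CPM. The Dleu2 pair thus held 2.80 times the counts of the Smc4 pair in replicate 1 (2.73 to 2.87) and 2.78 times in replicate 2 (2.71 to 2.84). The mean ratio was 2.79 ± 0.0142 (SD, n = 2), so among singly aligned reads the difference between the loci was larger than the spread between the libraries. Each sum holds a Mir16 gene whose count is a lower limit. The ratio over all reads of the loci could thus be higher or lower, and the intervals do not cover this. With 2 libraries no test across samples was made.

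Both kinds of microRNA showed this order. Mir15a exceeded Mir15b 2.57-fold in replicate 1 and 2.52-fold in replicate 2, a mean of 2.55 ± 0.0311. Mir16-1 exceeded Mir16-2 3.18-fold and 3.26-fold, a mean of 3.22 ± 0.0536, among reads that could be placed at one gene. The 5p arms of the Mir15 genes differ at 4 positions, so their reads can be told apart. The Mir16 ratio rests only on reads that aligned at one place, and the share of each arm cannot be read from counts per gene.

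Inside each locus the Mir15 gene held more counts than the Mir16 gene downstream of it. Mir15a was 1.35 times Mir16-1 in replicate 1 (1.32 to 1.39) and 1.47 times in replicate 2 (1.43 to 1.51). Mir15b was 1.68 times Mir16-2 in replicate 1 (1.61 to 1.75) and 1.90 times in replicate 2 (1.82 to 1.98). The intervals of the libraries did not overlap for either pair, and both ratios were larger in replicate 2. The order holds for singly aligned reads only, because the counts of the Mir16 genes are lower limits.

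On chromosome 11, Mir497 and its partner Mir195a were at like levels. Mir195a had 774 CPM in replicate 1 and 844 CPM in replicate 2, a mean of 809 ± 49.2 CPM. The ratio of Mir497 to Mir195a was 1.02 in replicate 1 (0.970 to 1.06) and 0.974 in replicate 2 (0.929 to 1.02), so which was higher was not resolved. Together they summed to 1613 ± 74.3 CPM. The Smc4 pair held 1.35 ± 0.0282 times, and the Dleu2 pair 3.77 ± 0.0594 times, the counts of this locus, above 1 in both libraries.

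**Figure D3:**
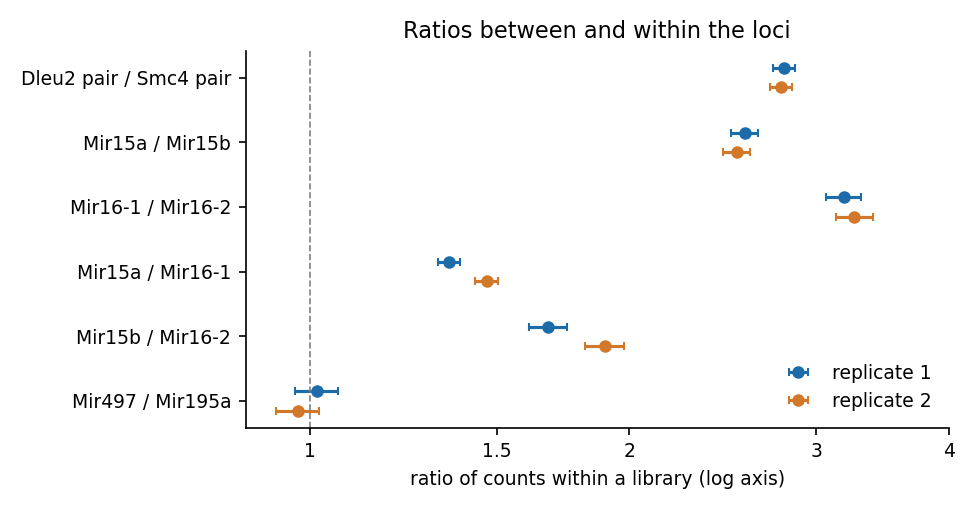
Ratios of counts of singly aligned reads within replicate 1 (blue) and replicate 2 (orange) on a log axis, with exact 95% intervals for counting error. The dashed line marks a ratio of 1. The ratio of the Dleu2 pair to the Smc4 pair is 2.80 and 2.78, both ratios of a Mir15 gene to its Mir16 neighbour lie above 1, and the ratio of Mir497 to Mir195a crosses 1.

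The members were also set beside the rest of the seed family. The 5 members took 0.868% of the microRNA counts in replicate 1 and 0.946% in replicate 2. The 11 genes with the seed AGCAGCA took 6.20% and 6.52%, of which Mir322 alone gave 84.7% and 84.2%. These shares are of singly aligned reads: with the reads of miR-16-5p that were given to no gene, the share of Mir322 would be lower and that of the members higher. Mir322 stood at 52530 and 54899 CPM, 15.1 ± 0.827 times Mir15a. The 5 members gave 14.3% ± 0.351 of the seed family's counts, and Mir195a 1.27% ± 0.0320. Mir503, the neighbour of Mir322 with the altered seed, had 2653 and 2644 CPM, between Mir15a and Mir16-1 in both libraries.

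The remaining genes of the seed were at 0. Mir195b, Mir6342, Mir6353 and Mir6419 had no count on their own strand in either library, as did Mir1907 of the family list. A count of 0 allows up to 0.651 CPM in replicate 1 and 0.724 CPM in replicate 2 for singly aligned reads. The mature RNAs of the first 4 were found in no other hairpin of the RefSeq table.

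Genes nearest in mean level were named as those next above and next below each member over the 2 libraries. Mir15a (3562 CPM) lay between Mir22 (3819 ± 149 CPM) and Mir30d (3552 ± 19.7 CPM). Mir16-1 lay between Mir423 (2612 ± 199 CPM) and Mir200c (2500 ± 113 CPM), and Mir15b between Mir341 (1420 ± 139 CPM) and Mir433 (1344 ± 248 CPM). Mir497 lay between Mir195a and Mir210 (796 ± 41.5 CPM), and Mir16-2 between Mir210 and Mir467c (755 ± 12.7 CPM). With 2 libraries these levels place the genes side by side and say nothing of a shared pattern.

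To compare the libraries, the split of the reads of each gene was set against the library totals in an exact two-sided binomial test, with Benjamini-Hochberg adjustment over the 408 genes with at least 10 counts. The test sets these libraries against counting noise and says nothing of conditions. Mir15b was higher in replicate 2 by 0.20 on the log2 scale (adjusted p = 1.52e-13, exact binomial test) and Mir15a by 0.18 (adjusted p = 1.20e-25, exact binomial test). These were the members with the largest difference, and 81 and 90 of the 276 genes with at least 100 counts differed by more. Mir16-1 had a log2 ratio of 0.06 (adjusted p = 0.0114, exact binomial test), which turned to -0.0052 with TMM scaling and was then not called. Mir497 had 0.06 (adjusted p = 0.153, exact binomial test) and Mir16-2 0.02 (adjusted p = 0.740), and neither passed the threshold of 0.05. The sign of Mir16-2 turned with TMM scaling and with DESeq2 size factors, and that of Mir497 with DESeq2 size factors.

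The test called 3 of the 5 members, all higher in replicate 2. Over all genes tested it called 35.3% in either direction and 19.6% as higher in replicate 2. All 5 members had at least 100 counts over both libraries. Among the 276 such genes, with adjustment over these alone, 146 were called in either direction. None of the members, and 0.98% of the genes tested, was called with at least a 2-fold difference. The median log2 ratio was 0.06 over the 5 members and 0.04 over the 408 genes. With edgeR's exact test at the biological coefficient of variation estimated from the same libraries, 8.55%, 0 of the 408 genes were called and each member had an adjusted p of 1, while 27 genes had an unadjusted p under 0.05. The differences tested there also set the noise they were tested against, so these values say nothing of stability.

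Markers of other tissues differed between the libraries as well. Both skeletal muscle markers were lower in replicate 2 (summed 6196 against 4520 CPM), as were both erythroid markers (539 against 409 CPM) and both epidermal markers (53900.0 against 43852 CPM). Both cartilage markers (59560.0 against 63162 CPM) and both leukocyte markers (587 against 645 CPM) were higher. Mir223, of the leukocyte list, was not called (log2 ratio 0.06, adjusted p = 0.419, exact binomial test). TMM or DESeq2 scaling shifts the log2 ratio of every gene by the same amount. The ratio of Mir497, 0.064, became 0.0016 with TMM and -0.0082 with DESeq2 size factors. The sign of the like ratios of Mir223 and the cartilage marker Mir455 (0.06) thus also depends on the scaling. Of the Hox-hosted markers, Mir196b was higher in replicate 2 (log2 ratio 0.14) and Mir10b lower (-0.19). The liver marker Mir122 moved most among the listed markers, from 6.29 to 13.5 CPM (29 against 56 counts). The endothelial marker Mir126a was at 18963 and 19268 CPM, and the brain markers were at 0 in both. Their part in the differences of Mir15a and Mir15b was not tested.

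**Figure D4:**
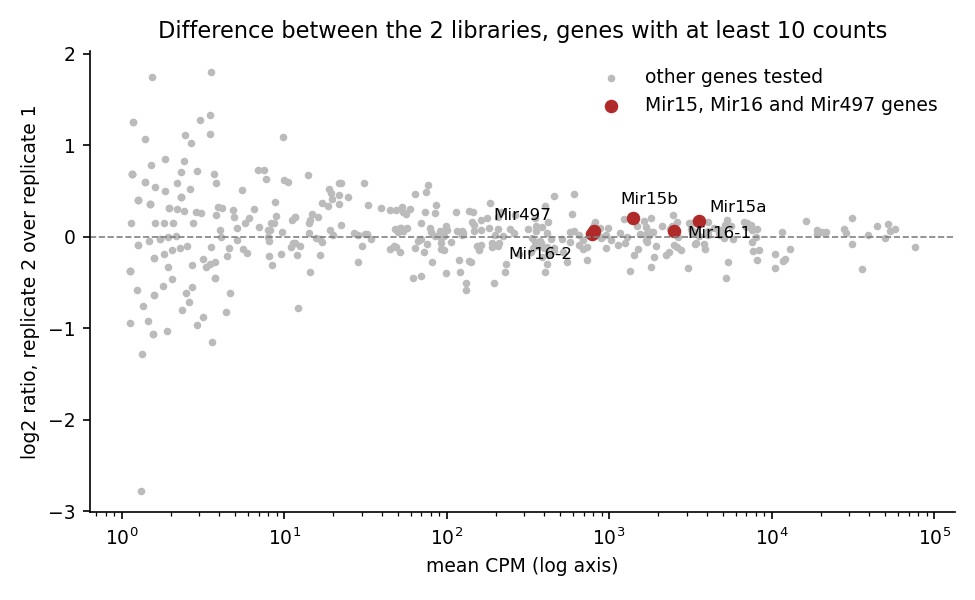
Log2 ratio of replicate 2 over replicate 1 against mean CPM (log axis) for the 408 genes with at least 10 counts; red points are the members, with Mir497 read from the opposite strand of the Mir497b row. The members lie between 0.02 and 0.20, within the band of genes of like level.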

How the data were processed

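Small RNA of 2 limb samples was sequenced. The deposited tables held read counts per gene, with no normalization. The authors aligned to mm10 and counted on GENCODE M4, per the accompanying read-me files. The aligner and counter are not given in the sources used here. The columns were read as either, own and opposite strand, judged from the values. Tally rows (unmapped reads 13.2%, several alignments 32.2%, no gene 4.25% of all reads on average) were kept out of totals and tests.

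Of 1973 identifiers, 1894 matched GENCODE M21, which is of the same build. CPM used the own-strand sum as the total, also for the opposite-strand reads at Mir497b. Log2 ratios carried a prior count of 0.5. Ratio intervals were exact Clopper-Pearson and level intervals exact Poisson, at 95%. A quasi-likelihood test could not be fitted with 1 library a side. The binomial test was tried on simulated counts with Poisson noise alone, so that check says nothing of variation between libraries beyond counting error. TMM factors and the exact test came from edgeR 4.0.16 and size factors from DESeq2 1.42.0 in R 4.3.3, the rest from Python 3.11.15, scipy 1.17.1 and pandas 2.3.3. Named genes were the members, the rest of the family list (genes of the seed, Mir503 and Mir1907), the gene next above and below each member, and markers from a fixed list of tissue microRNAs. Members, lists and tests were chosen with earlier results of these data known.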

Additional observations from a re-analysis of the deposited data

How the results depend on the processing

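When the total also held the reads with several alignments, CPM fell to 2170 for Mir15a, 1537 for Mir16-1, 852 for Mir15b, 477 for Mir16-2 and 489.8 for Mir497. The locus sums became 3707 (Dleu2), 1329 (Smc4) and 982.5 (Mir497 and Mir195a), and the members' share of counts 0.553%. This larger total lowers every level by construction and leaves the ratios as they are. With either-strand counts Mir15a was at 3450 CPM, Mir16-1 at 2444, Mir15b at 1356, Mir16-2 at 758 and the Mir497b row at 779. The Mir15 and Mir16 genes had no reads on the opposite strand, so their levels fell only through the larger total. The ratio of the Smc4 to the Dleu2 locus was 0.359, and 0.393 from the Mir15 genes alone. Without Mir497b the members took 0.827% of the counts and 13.0% of the seed family.

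The log2 ratio between the libraries reversed for Mir16-1 (-0.0052 with TMM, -0.015 with DESeq2 size factors), Mir16-2 (-0.039 and -0.049) and, with DESeq2, Mir497 (-0.0082). Those of Mir15a and Mir15b stayed positive and called under both scalings. Without a count filter the ratio of Mir16-1, 0.057, missed the threshold (adjusted p = 0.0551), as more genes were tested. Under edgeR's exact test, with a dispersion estimated from the same libraries and read per member only after the data were seen, the ratios of Mir15a (0.175), Mir16-1 (0.057) and Mir15b (0.200) missed it too. The number of genes called went from 144 to 0 under that test, and from 4 to 0 at 2-fold. It was 2 at 2-fold without a filter, where more genes were tested, and 0 with at least 100 counts. The 4 genes called at 2-fold were Mir5126, Mir3057, Mir122 and Mir741. Each had fewer than 100 counts over both libraries, so that filter left them out. The cause of the fall under edgeR's test was not tested. Leaving out a library gives the other library's value, and no difference between libraries. No paired analysis was possible because there was 1 group.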
